A study of Arabidopsis thaliana with 12 samples.

Results

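The MYB transcription factors described here are the genes whose symbol in the deposited tables is MYB followed by a number and that reached at least 1 FPKM (a level scaled by gene length and library total) in at least 3 of 12 root libraries of Arabidopsis thaliana. They are 55 of 103 such symbols. A further 40 symbols were under the threshold, and 8 regulators of glucosinolates, flavonols or the endodermis (MYB12, MYB28, MYB29, MYB34, MYB36, MYB51, MYB111 and MYB122) were set aside by name. The tables list 23719 genes, of which 18326 passed the same threshold and were tested. RNA sequencing of roots covered the erf114 mutant and the accession Col, each after 3 h with methyl jasmonate (MeJA, the methyl ester of the wound hormone jasmonate) or on MS medium alone. The 4 groups, erf114 MeJA, erf114 MS, Col MeJA and Col MS, held 3 libraries each. All seedlings were kept cold for 2 days and grown for 5 days at 22 °C. The treatment protocol gives 15 µM MeJA and the series' design text 50 µM, so the dose is not settled here. The labels give neither the kind of erf114 mutation nor whether replicates were separate cultures, so each p-value reflects the spread among these libraries alone, and that spread may be technical.

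MYB proteins of this kind bind DNA through a pair of imperfect helix-turn-helix repeats and form one of the largest families of plant transcription factors. They set secondary metabolism, cell wall and suberin deposition, root epidermal cell fate, and responses to cold, pathogens and nutrients. Jasmonate acts by removing JAZ repressors, which bind MYC factors and also several MYB proteins, and MYC factors recognise the G-box and related motifs in promoters.

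The promoters of 4 members illustrate the largest rises and falls described below. They are the 250 bases before the annotated start in the TAIR10.1 sequence from RefSeq, written 5′ to 3′ on the gene's strand, and capitals mark a match to a G-box (CACGTG) or a related motif (CATGTG or CACATG, and AACGTG or CACGTT). MYB14 (AT2G31180, chr2:13288381-13288630, minus strand) rose most after MeJA and held none of these motifs. MYB95 (AT1G74430, chr1:27974918-27975167, plus strand) also rose, and had CATGTG beginning 219 bases before its start. MYB305 (AT3G24310, chr3:8812484-8812733, minus strand) fell in both genotypes and held no match. MYB19 (AT5G52260, chr5:21219781-21220030, plus strand) fell too, with the G-box CACGTG 179 bases before its start.
MYB14: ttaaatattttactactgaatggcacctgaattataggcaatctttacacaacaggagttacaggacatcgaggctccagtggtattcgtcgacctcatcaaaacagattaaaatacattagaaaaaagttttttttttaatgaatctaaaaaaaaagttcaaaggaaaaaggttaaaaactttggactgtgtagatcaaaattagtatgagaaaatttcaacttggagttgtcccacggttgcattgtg
MYB95: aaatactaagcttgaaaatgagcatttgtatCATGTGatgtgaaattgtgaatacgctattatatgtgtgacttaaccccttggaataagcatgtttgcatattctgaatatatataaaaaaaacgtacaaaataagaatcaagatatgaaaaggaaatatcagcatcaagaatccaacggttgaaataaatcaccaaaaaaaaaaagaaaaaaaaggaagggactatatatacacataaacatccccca
MYB305: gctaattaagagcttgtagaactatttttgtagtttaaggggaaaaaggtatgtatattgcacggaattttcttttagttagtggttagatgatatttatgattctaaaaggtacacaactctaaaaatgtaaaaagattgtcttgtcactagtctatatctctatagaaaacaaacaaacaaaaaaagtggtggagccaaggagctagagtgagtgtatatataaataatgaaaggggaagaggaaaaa
MYB19: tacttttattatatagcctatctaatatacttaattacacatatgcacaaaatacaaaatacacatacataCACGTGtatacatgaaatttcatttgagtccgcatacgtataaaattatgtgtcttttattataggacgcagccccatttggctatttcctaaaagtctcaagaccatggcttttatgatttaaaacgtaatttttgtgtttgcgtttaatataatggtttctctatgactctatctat

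Across both strands, the G-box was in 4 of 55 member promoters, or 7.27%, and in 7.47% of the 18325 tested promoters that could be read at this length. It was in 0 of the 5 members that MeJA raised in either genotype and in 2 of the 12 that it lowered. CATGTG or CACATG was in 5 member promoters, or 9.09%, beside 11.2% of all promoters, with 1 among those raised and 1 among those lowered. AACGTG or CACGTT was in 3, or 5.45%, beside 7.8%, with 1 among those raised and 0 among those lowered. Each of the 3 shares over the 55 members was near that of all promoters. The differences were not tested, and nothing is read from them.

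The check of the mutant came first. ERF114 had 13, 13 and 10 estimated counts in erf114 MeJA libraries and 0, 1 and 1 in erf114 MS libraries, against 59, 50 and 42 in Col MeJA libraries and 3, 0 and 0 in Col MS libraries. After MeJA it was lower in every erf114 library than in every Col library, with a log2 fold change of -1.95 ± 0.39 (SE) and an adjusted p of 0.071. This missed the 0.05 set for a call. On MS the few counts could not tell the genotypes apart (-0.60 ± 1.20, adjusted p = 0.91). MeJA raised ERF114 in erf114 (4.21 ± 0.75, adjusted p = 0.0015) as well as in Col (5.55 ± 0.59, adjusted p = 2.5e-05). Every adjusted p comes from edgeR (quasi-likelihood test, Benjamini-Hochberg over all 18326 genes), a gene was called at 0.05, and a value after ± is the SE of a log2 fold change or the SD (n = 3) of an FPKM level. Depth ran from 20546417 to 20897031 estimated counts per library, and members had 203 to 18061 counts in all. All 8 root markers were detected, such as PYK10 at 2986.77 to 11333 FPKM and CASP1 at 487.79 to 875.29 FPKM, while the flower markers AP3, PI and SEP3 stayed at or below 1.58 FPKM.

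MYB levels spanned a wide range. MYB73, an auxin-response and abscisic acid factor, had the highest mean over the 12 libraries with 71.0 FPKM, followed by MYB59, a regulator of nitrate and potassium transport to the shoot, with 59.8 FPKM. MYB92, a suberin regulator, averaged 30.1 FPKM and MYB77, a partner of auxin response factors in lateral root growth, 27.6 FPKM. The lowest members were MYB83 and MYB42, 2 secondary wall factors, with means of 0.874 and 0.858 FPKM. The members just inside the threshold were MYB83, MYB42 and MYB25, whose third-highest library had 1.03, 1.05 and 1.34 FPKM, and just outside it lay MYB37, MYB78 and MYB58 with 0.97, 0.94 and 0.77 FPKM. MYB21 and MYB24, known as JAZ-bound regulators of stamen development, were outside with third-highest values of 0.54 and 0.0 FPKM, as was MYB72, the iron-deficiency partner of MYB10, with 0.46 FPKM.

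MeJA changed MYB genes in both directions. In erf114, 15 of 55 members, or 27.3%, were called, 4 higher and 11 lower. Among all tested genes 18.8% were called, 10.2% higher and 8.59% lower. In Col, 14 members, or 25.5%, were called, 5 higher and 9 lower, while 22.0% of all genes were called, 10.4% higher and 11.5% lower. In Col the split turned on single libraries, with 7 higher and 6 lower without Col MS replicate 2, and 5 higher and 5 lower without Col MS replicate 3 or Col MeJA replicate 1. Over all genes the same settings, in that order, called 1854, 1629 and 1698 higher and 2155, 1830 and 1661 lower. The main fit called 1912 genes higher and 2114 lower in Col. The total share in Col was near that of all genes, and none of the differences from the background was tested. The median log2 fold change over the members was -0.12 in erf114 and 0.07 in Col, beside -0.01 and 0.0 over all genes. MYB14, MYB13, MYB95 and MYB63 rose in both genotypes, and MYB305, MYB30, MYB39, MYB19, MYB49, MYB59, MYB53 and MYB61 fell in both. Each genotype was compared with its own MS libraries. The other 5 called genes passed in 1 genotype, MYB10, MYB43 and MYB54 falling in erf114, and MYB77 falling and MYB88 rising in Col, and 38 members passed in neither. Roots are bulk samples, in which fewer cells of a type and less RNA per cell cannot be told apart.

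**Figure D1:**
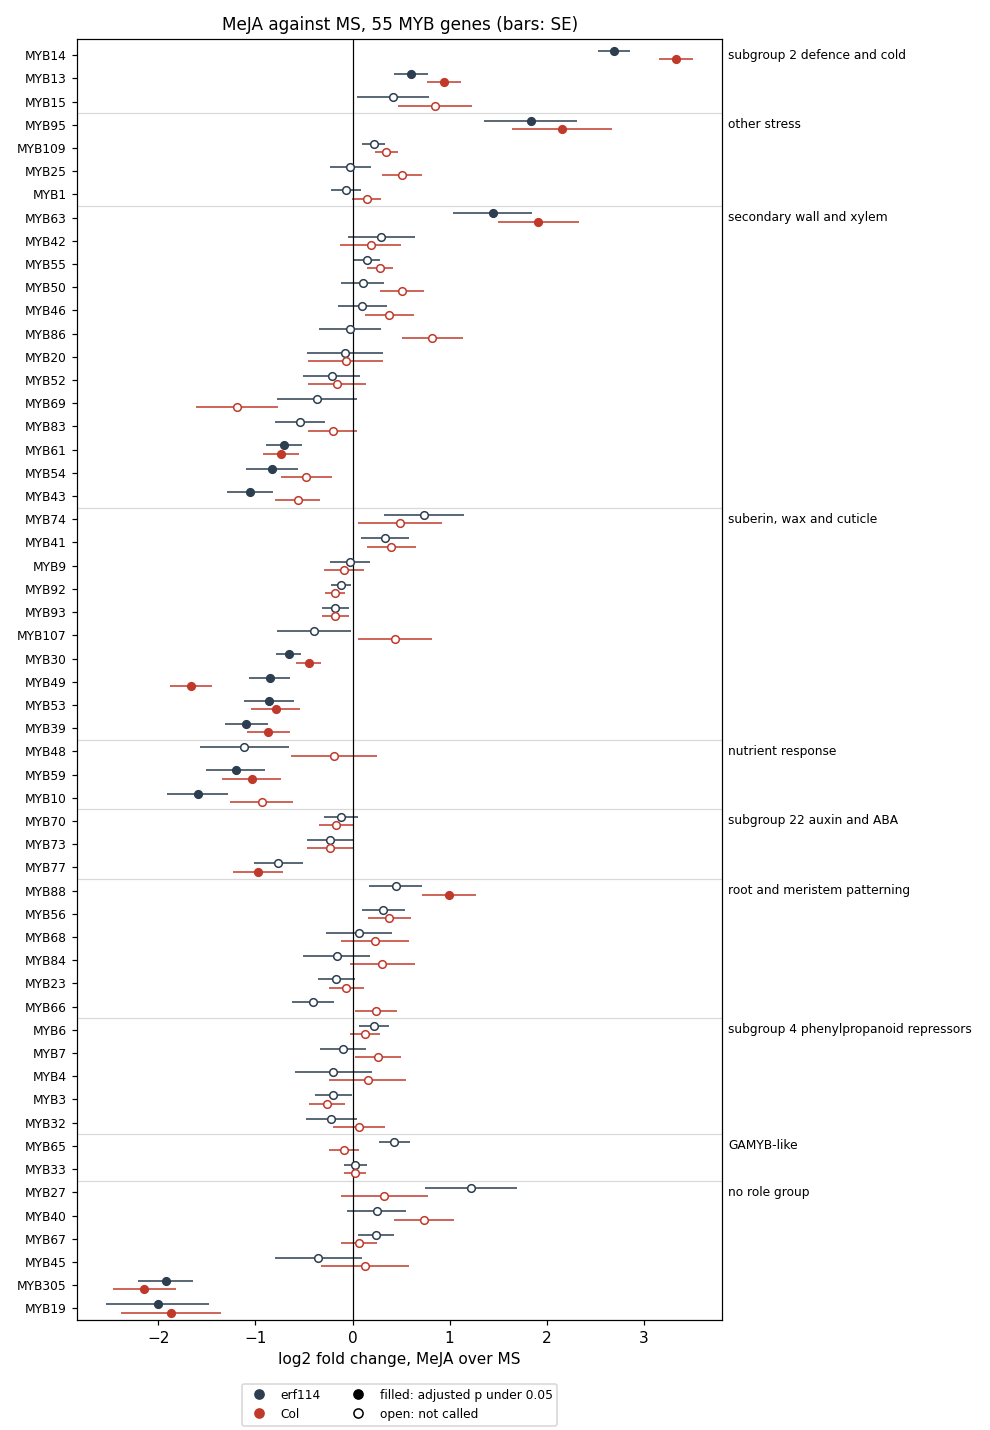
Log2 fold change of MeJA over MS (x axis) for each of the 55 MYB genes (y axis, by role), in erf114 (dark blue, upper point) and Col (red, lower point). Bars are SE, and filled points passed an adjusted p of 0.05; MYB14 lies far to the right in both genotypes, and MYB305 and MYB19 far to the left.

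FPKM levels are given as deposited, without the rescaling used in the test. On the log2(FPKM + 1) scale the median gene shifted by -0.28 between MS and MeJA in erf114 and by -0.05 in Col. Fold changes below are on the rescaled counts and are relative to that shift. The scaling factors of the test were 0.82 to 0.99 in erf114 MeJA libraries and 1.08 to 1.13 in erf114 MS libraries. Whether groups overlap is judged on the levels as deposited, so MeJA values in erf114 sit lower there than in the test. Limma, an alternative to edgeR used below, was run on log2(FPKM + 1) without rescaling and carries the same shift.

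The MYB genes of subgroup 2 regulate cold and defence responses, MYB15 in particular acting on CBF genes and on defence lignin. Of these 3 members, MYB14 and MYB13 rose in both genotypes and MYB15 passed in neither. MYB14 had 19.1, 23.9 and 14.9 FPKM in erf114 MeJA roots, against 3.21, 3.72 and 4.01 FPKM in erf114 MS roots. In Col it had 20.5, 23.2 and 26.0 FPKM with MeJA, against 2.43, 2.66 and 2.11 FPKM on MS. Every MeJA library was far above every MS library. The log2 fold change was 2.70 ± 0.17 in erf114 (adjusted p = 2.8e-07) and 3.33 ± 0.17 in Col (adjusted p = 8.4e-08), or 6.48-fold and 10.1-fold, and MYB14 kept its call under every alternative in both genotypes.

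MYB13 rose less, with a log2 fold change of 0.60 ± 0.17 in erf114 (adjusted p = 0.028) and 0.94 ± 0.17 in Col (adjusted p = 0.0018). Its FPKM values overlapped between MeJA and MS in erf114 and did not in Col. The erf114 call was lost without MeJA replicate 1 or 2 or without any 1 MS replicate, with log2 fold changes of 0.41 to 0.65 and adjusted p-values of 0.056 to 0.11. Limma on log2(FPKM + 1), which carries the median shift given above, gave 0.25 (adjusted p = 0.39). MYB15 had 21.3, 15.1 and 21.5 FPKM in erf114 MeJA roots, against 10.5, 11.4 and 32.4 FPKM in erf114 MS roots. A single library, erf114 MS replicate 3, was above all others. Col gave 15.0, 17.5 and 22.8 FPKM with MeJA, against 8.40, 10.1 and 13.8 FPKM on MS, without overlap. Its log2 fold change was 0.42 ± 0.37 in erf114 (adjusted p = 0.56) and 0.85 ± 0.38 in Col (adjusted p = 0.14). Without erf114 MS replicate 3 it was 1.14 (adjusted p = 0.0078) in erf114 and 0.85 (adjusted p = 0.016) in Col. In that library a list of 12 touch and stress genes averaged 6.06 on the log2(FPKM + 1) scale, beside 5.26 and 5.0 in the other erf114 MS libraries. The part of those genes in the MYB15 value was not tested.

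Among 4 other stress-related members, MYB95 rose and MYB1, MYB25 and MYB109 passed in neither genotype, with log2 fold changes of -0.07 to 0.22 in erf114 and 0.15 to 0.51 in Col. MYB109 was called higher in Col with DESeq2 (0.34, adjusted p = 0.032), and without Col MS replicate 3 (0.44, adjusted p = 0.034) or erf114 MeJA replicate 3 (0.35, adjusted p = 0.037). MYB95 had 5.23, 2.40 and 3.01 FPKM in erf114 MeJA roots, against 0.72, 1.30 and 3.57 FPKM in erf114 MS roots. Col roots had 4.00, 2.36 and 4.00 FPKM with MeJA, against 1.09, 1.23 and 0.78 FPKM on MS. The groups overlapped in erf114 through MS replicate 3 and were separate in Col. MeJA over MS gave a log2 fold change of 1.84 ± 0.48 in erf114 (adjusted p = 0.017) and 2.16 ± 0.51 in Col (adjusted p = 0.0092). Without erf114 MS replicate 1, erf114 MS replicate 2 or erf114 MeJA replicate 1, the erf114 value was 1.41 to 1.59 and its adjusted p 0.069 to 0.088. Limma on log2(FPKM + 1), which carries the median shift, gave 0.74 (adjusted p = 0.1) in erf114. MYB95 shares 933 of its 2267 bases with AT1G74440 on the opposite strand, and the labels do not say whether counting used strand, so its level is uncertain. AT1G74440 changed by -0.15 in erf114 (adjusted p = 0.84) and -0.46 in Col (adjusted p = 0.36) on the log2 scale.

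Secondary wall and xylem factors were the most numerous role group, with 13 members. MYB63 rose in both genotypes, MYB61 fell in both, MYB43 and MYB54 fell in erf114, and 9 passed in neither, including MYB46 and MYB83, the pair of master switches of the secondary wall program. MYB63, an activator of lignin biosynthesis genes, had 3.90, 7.91 and 2.68 FPKM in erf114 MeJA roots, against 1.85, 1.77 and 2.74 FPKM in erf114 MS roots. Col gave 3.90, 6.45 and 6.57 FPKM with MeJA, against 0.49, 2.54 and 1.88 FPKM on MS. FPKM values as deposited overlapped in erf114, where MeJA replicate 3 was just under the highest MS library, and did not overlap in Col. The fitted log2 fold change was 1.44 ± 0.41 in erf114 (adjusted p = 0.026) and 1.91 ± 0.42 in Col (adjusted p = 0.0054). The erf114 call was lost without MS replicate 1, MS replicate 2 or MeJA replicate 2, at 1.00 to 1.37 and adjusted p-values of 0.093 to 0.11. Limma on log2(FPKM + 1), which carries the median shift, gave 0.82 (adjusted p = 0.1) in erf114.

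MYB43, which with MYB20, MYB42 and MYB85 activates lignin and phenylalanine biosynthesis, had 3.48, 5.63 and 1.95 FPKM in erf114 MeJA roots, against 8.77, 9.92 and 9.24 FPKM in erf114 MS roots. With MeJA, Col had 5.03, 5.07 and 6.10 FPKM, against 6.37, 10.2 and 8.74 FPKM on MS. All MeJA values lay below the MS values of the same genotype. The log2 fold change was -1.06 ± 0.24 in erf114 (adjusted p = 0.0069) and -0.56 ± 0.23 in Col (adjusted p = 0.11), where it passed without erf114 MeJA replicate 2 or 3 at adjusted p-values of 0.036 and 0.025. The erf114 call of MYB43 was lost with a block within the 2 groups compared (-1.13, adjusted p = 0.057). MYB61, a regulator of resource allocation to xylem and roots, changed by -0.70 ± 0.18 in erf114 (adjusted p = 0.018) and -0.74 ± 0.18 in Col (adjusted p = 0.012). Its erf114 call was lost without MS replicate 3 (-0.62, adjusted p = 0.068) or MeJA replicate 1 (-0.59, adjusted p = 0.082), and its Col call without Col MeJA replicate 1 (-0.60, adjusted p = 0.051). MYB54 changed by -0.83 ± 0.26 in erf114 (adjusted p = 0.047) and -0.48 ± 0.26 in Col (adjusted p = 0.22). That erf114 call was lost in 12 of 20 alternatives, among them leaving out any erf114 MS replicate, erf114 MeJA replicate 1 or 3, any Col MeJA replicate or Col MS replicate 3, at -0.65 to -0.86 and adjusted p-values of 0.055 to 0.18.

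The other 9 wall members, MYB20, MYB42, MYB46, MYB50, MYB52, MYB55, MYB69, MYB83 and MYB86, had mean levels of 0.86 to 17.93 FPKM. Their log2 fold changes were -0.54 to 0.30 in erf114 and -1.19 to 0.82 in Col. The extremes in Col were MYB69 (-1.19, adjusted p = 0.064) and MYB86 (0.82, adjusted p = 0.088). With the replicate number as a block they were called, at -1.23 (adjusted p = 0.038) and 0.87 (adjusted p = 0.017). DESeq2 called both as well, at -1.20 (adjusted p = 0.042) and 0.825 (adjusted p = 0.048). MYB50 was called higher in Col without Col MS replicate 2 (0.78, adjusted p = 0.025).

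Of 10 regulators of suberin, wax or cuticle, MYB39, MYB49, MYB53 and MYB30 fell in both genotypes and none rose. MYB39, a regulator of endodermal suberin also called SUBERMAN, had 1.63, 1.91 and 2.43 FPKM in erf114 MeJA roots, against 5.12, 4.22 and 6.49 FPKM in erf114 MS roots. In Col it had 2.06, 1.86 and 2.14 FPKM with MeJA, against 2.98, 4.62 and 4.11 FPKM on MS. No MeJA library reached an MS library. On the log2 scale the change was -1.09 ± 0.22 in erf114 (adjusted p = 0.0037) and -0.87 ± 0.22 in Col (adjusted p = 0.015), with the Col call lost without MeJA replicate 2 (-0.79, adjusted p = 0.068).

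MYB49, a regulator of cadmium uptake that the abscisic acid factor ABI5 restrains, had 4.91, 4.17 and 3.99 FPKM in erf114 MeJA roots, against 8.50, 7.85 and 12.9 FPKM in erf114 MS roots. Col had 3.87, 3.45 and 2.95 FPKM with MeJA, against 9.38, 11.3 and 13.8 FPKM on MS. The groups were separate in both genotypes. The fitted change (log2) was -0.85 ± 0.21 in erf114 (adjusted p = 0.012) and -1.67 ± 0.21 in Col (adjusted p = 0.00012), and the erf114 call was lost with a block within the 2 groups (-0.82, adjusted p = 0.068). MYB30, a regulator of very-long-chain fatty acid synthesis in the hypersensitive response, changed by -0.66 ± 0.13 in erf114 (adjusted p = 0.003) and -0.45 ± 0.13 in Col (adjusted p = 0.026). Its Col call was lost without Col MS replicate 1, Col MS replicate 3, Col MeJA replicate 2 or Col MeJA replicate 3, at -0.35 to -0.49 and adjusted p-values of 0.052 to 0.13. MYB53, a suberin regulator, changed by -0.86 ± 0.26 in erf114 (adjusted p = 0.035) and -0.79 ± 0.25 in Col (adjusted p = 0.041). In Col the MYB53 call was lost without any 1 Col MS replicate, Col MeJA replicate 1 or 3, erf114 MS replicate 1 or 3 or erf114 MeJA replicate 1, at -0.72 to -0.84 and adjusted p-values of 0.051 to 0.14. In erf114 it was lost without Col MS replicate 3, erf114 MS replicate 1 or 2 or erf114 MeJA replicate 1 or 3, at -0.65 to -0.92 and adjusted p-values of 0.051 to 0.14.

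The remaining 6, MYB9, MYB41, MYB74, MYB92, MYB93 and MYB107, passed in neither genotype, with log2 fold changes of -0.40 to 0.74 in erf114 and -0.18 to 0.49 in Col. They include MYB92 and MYB93, the suberin-related members of highest level, at -0.12 and -0.18 in erf114 and -0.18 each in Col. MYB9, a regulator of seed coat suberin, shares 1447 of its 2437 bases with a gene on the opposite strand.

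Of 3 nutrient-response members, MYB59 fell in both genotypes, MYB10 fell in erf114, and MYB48 passed in neither. MYB59 had 25.4, 44.5 and 19.4 FPKM in erf114 MeJA roots, against 95.1, 95.8 and 58.4 FPKM in erf114 MS roots. The Col values were 28.6, 52.3 and 37.9 FPKM with MeJA, against 56.2, 128.0 and 76.7 FPKM on MS. MeJA values were below MS values in each genotype. The log2 fold change was -1.21 ± 0.30 in erf114 (adjusted p = 0.014) and -1.04 ± 0.30 in Col (adjusted p = 0.026). The Col call was lost without MS replicate 2, MeJA replicate 1 or MeJA replicate 3 (-0.75 to -1.0, adjusted p 0.093 to 0.098). The erf114 call was lost without MS replicate 1 or 2 or MeJA replicate 1 or 3 (-1.02 to -1.12, adjusted p 0.053 to 0.060).

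MYB10, which with MYB72 activates nicotianamine synthase genes under iron deficiency, had 1.50, 2.80 and 1.95 FPKM in erf114 MeJA roots, against 6.22, 9.76 and 8.22 FPKM in erf114 MS roots. In Col it had 1.35, 2.46 and 1.92 FPKM with MeJA, against 1.82, 6.29 and 3.78 FPKM on MS, where MS replicate 1 lay within the MeJA range. The log2 fold change was -1.60 ± 0.31 in erf114 (adjusted p = 0.003) and -0.94 ± 0.33 in Col (adjusted p = 0.061). In Col it was called with DESeq2 (-0.94, adjusted p = 0.03), with the replicate block (-0.91, adjusted p = 0.007), and without Col MS replicate 1 (-1.21, adjusted p = 0.0078). MYB10 shares 340 of its 1789 bases with AT3G12810 on the opposite strand. MYB48, the paralogue of MYB59, changed by -1.11 ± 0.46 in erf114 (adjusted p = 0.13), close to MYB59 in size, and by -0.19 ± 0.44 in Col (adjusted p = 0.78). Without erf114 MeJA replicate 2 it was called in erf114 (-1.69, adjusted p = 0.032).

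Within subgroup 22, auxin and abscisic acid factors that act in lateral root growth, MYB77 fell in Col and MYB70 and MYB73 passed in neither genotype. MYB77 changed by -0.76 ± 0.26 in erf114 (adjusted p = 0.058) and by -0.97 ± 0.26 in Col (adjusted p = 0.017), with no overlap between MeJA and MS libraries in either. In erf114 it was called with DESeq2 (-0.74, adjusted p = 0.035), a mean FPKM of at least 5 or without erf114 MS replicate 2 (adjusted p = 0.039 each). Limma on log2(FPKM + 1), which carries the median shift given above, also called it there (-1.05, adjusted p = 0.0037). Its Col call was lost without Col MS replicate 3 (-0.91, adjusted p = 0.053) or Col MeJA replicate 2 (-0.85, adjusted p = 0.078). MYB88, a relative of the stomatal factor FLP that limits stomatal lineage divisions, changed by 0.44 ± 0.27 in erf114 (adjusted p = 0.34) and rose by 1.00 ± 0.28 in Col (adjusted p = 0.022). The MYB88 call was lost without Col MS replicate 1 or 3 or Col MeJA replicate 2 or 3, at 0.81 to 1.03 and adjusted p-values of 0.055 to 0.085. The other 5 root and meristem patterning members passed in neither genotype. They were MYB66 (WEREWOLF, which sets non-hair fate in the root epidermis), MYB23, MYB56, MYB68 and MYB84, with log2 fold changes of -0.41 to 0.32 in erf114 and -0.06 to 0.38 in Col. MYB66 was called lower in erf114 without erf114 MeJA replicate 2 (-0.69, adjusted p = 0.037).

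No change was called for the 5 phenylpropanoid repressors of subgroup 4, MYB3, MYB4, MYB6, MYB7 and MYB32, whose log2 fold changes lay between -0.22 and 0.22 in erf114 and between -0.26 and 0.26 in Col. MYB33 and MYB65, the gibberellin-related factors targeted by miR159, lay between 0.03 and 0.43 in erf114 and between -0.09 and 0.03 in Col and did not pass. MYB65 was called higher in erf114 without erf114 MeJA replicate 2 (0.54, adjusted p = 0.044).

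Without an assigned role, MYB305 and MYB19 fell in both genotypes. MYB305, also named MYB71 in RefSeq, had 0.58, 0.73 and 0.43 FPKM in erf114 MeJA roots, against 2.73, 2.60 and 2.88 FPKM in erf114 MS roots. Col roots had 0.39, 0.15 and 0.44 FPKM with MeJA, against 1.01, 1.86 and 1.81 FPKM on MS. The MeJA libraries were all under the lowest MS library. Its log2 fold change was -1.93 ± 0.28 in erf114 (adjusted p = 0.00038) and -2.15 ± 0.33 in Col (adjusted p = 0.00043), called under each of the 20 alternatives that tested it. MYB19 had 0.13, 0.89 and 0.40 FPKM in erf114 MeJA roots, against 1.91, 2.26 and 2.93 FPKM in erf114 MS roots. In Col it had 0.41, 0.82 and 0.48 FPKM with MeJA, against 0.74, 3.01 and 3.09 FPKM on MS, and MS replicate 1 fell within the MeJA range. On the log2 scale the change was -2.01 ± 0.53 in erf114 (adjusted p = 0.018) and -1.87 ± 0.51 in Col (adjusted p = 0.021). The Col call was lost without MS replicate 2 or 3 or MeJA replicate 1 or 3 (-1.61 to -1.75, adjusted p 0.060 to 0.084). The erf114 call was lost without MS replicate 3 or MeJA replicate 1 or 3 (-1.57 to -1.97, adjusted p 0.054 to 0.070). MYB27, MYB40, MYB45 and MYB67 did not pass, with log2 fold changes of -0.35 to 1.22 in erf114 and 0.07 to 0.74 in Col.

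**Figure D2:**
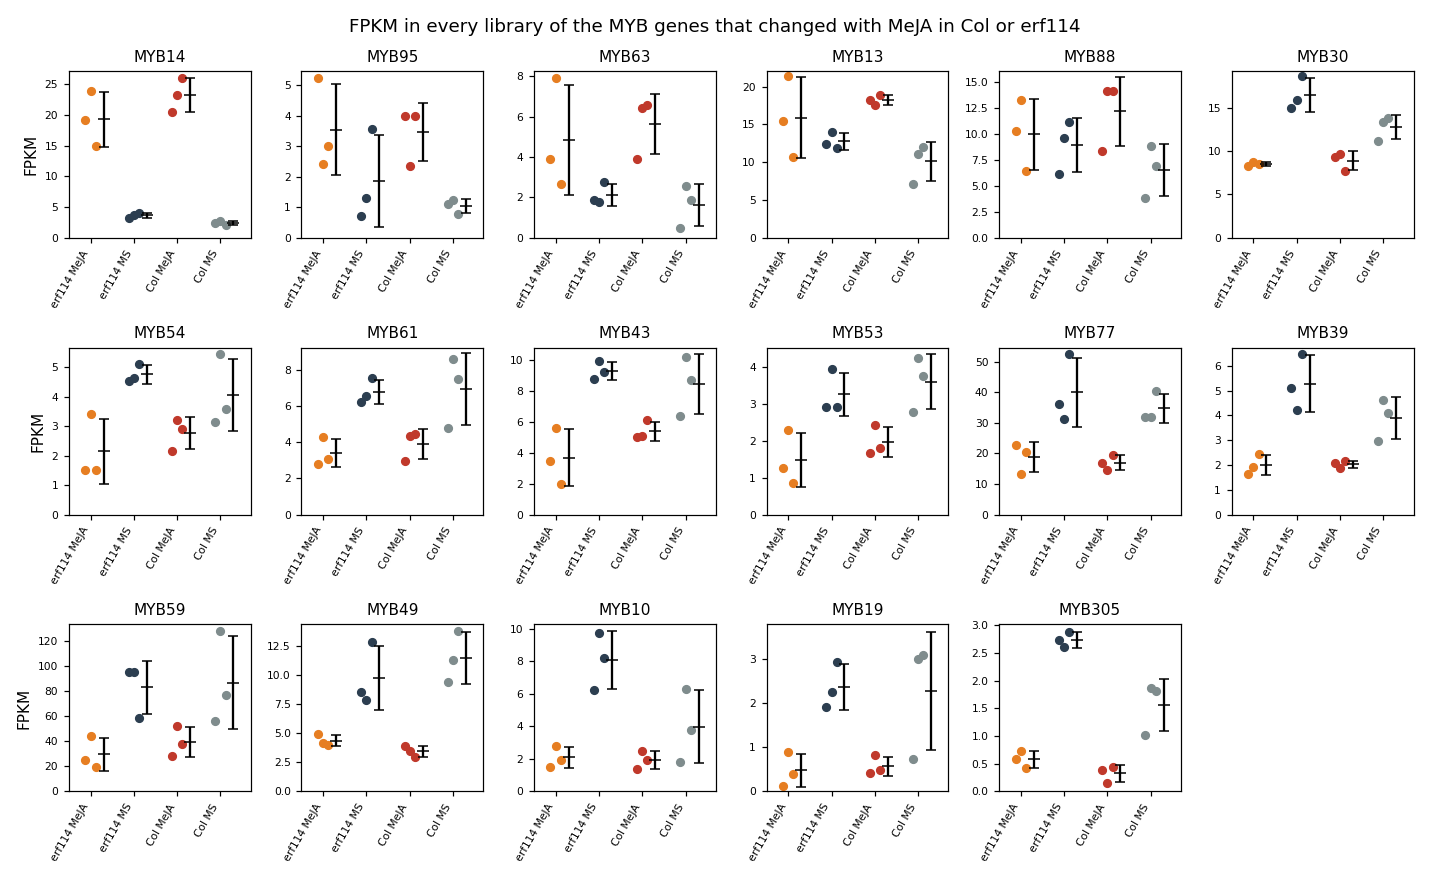
FPKM (y axis) in each library of the 17 MYB genes called in either genotype, by group in the order erf114 MeJA, erf114 MS, Col MeJA and Col MS; points are libraries and bars the mean and SD (n = 3). MYB14 shows the widest gap between MeJA and MS, and MYB95 and MYB63 overlap in erf114 on these levels, which are not rescaled.

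Replicate numbers were shared by the groups. In Col, MeJA and MS libraries of the same number deviated together, with correlations of 0.43, 0.43 and 0.26. With the number as a block, 8 members were higher and 11 lower in Col, against 5 and 9 without it. Over all genes the block gave 2157 higher and 2248 lower in Col, against 1912 and 2114 without it. The block added MYB15 (0.85, adjusted p = 0.032), MYB40 (0.79, adjusted p = 0.035) and MYB86 to those that rose, and MYB10 and MYB69 to those that fell, and no call was lost.

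Some libraries stood apart, and MYB genes moved with them. Col MS replicate 1 was the lowest of its group for 48 of 55 members, or 87.3%, as it was for 68.2% of all genes, and erf114 MeJA replicate 2 was the highest for 44 members, while 59.0% of all genes had their highest value there. The median deviation of the members from their group mean was -0.32 in Col MS replicate 1, beside -0.20 over all genes, and 0.32 in erf114 MeJA replicate 2, beside 0.12. Summed over 8 shoot photosynthesis genes, the level was 410.0, 150.3 and 519.3 FPKM in erf114 MeJA libraries and 402.4, 761.3 and 366.6 FPKM in erf114 MS libraries, against 199.9, 205.1 and 418.0 FPKM in Col MeJA libraries and 776.9, 244.8 and 265.7 FPKM in Col MS libraries. The highest sum was in Col MS replicate 1 and the lowest in erf114 MeJA replicate 2, while erf114 MS replicate 2, with the next highest sum, had a median MYB deviation of 0.03. The part of shoot tissue in the MYB values was not tested.

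**Figure D3:**
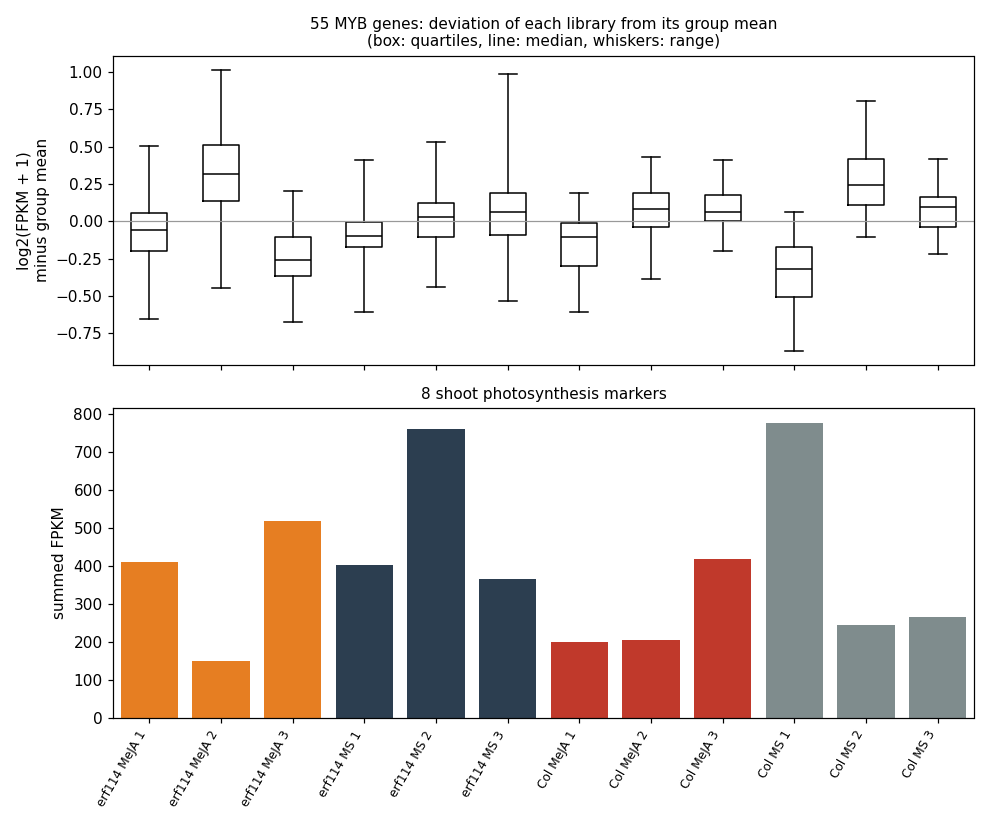
Upper panel, log2(FPKM + 1) of the 55 MYB genes minus their group mean (y axis) in each library, as quartiles, median and range. Lower panel, summed FPKM of 8 shoot photosynthesis genes in the same libraries; Col MS replicate 1 has the lowest MYB median and the highest photosynthesis sum, and erf114 MeJA replicate 2 the highest MYB median and the lowest sum.

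No MYB gene was called between erf114 and Col. On MS, 0 of 55 members passed in edgeR and in DESeq2, beside 0.0327% of all genes in edgeR, and 6 members had an unadjusted p under 0.05. After MeJA, 0 members passed in both tools, beside 0.382% of all genes, and 2 had an unadjusted p under 0.05. These shares of all genes are for the adjusted p. The share at the unadjusted p was not counted, so nothing is read from the 6 and the 2. The median log2 fold change of the members, erf114 over Col, was 0.16 on MS and 0.02 after MeJA, beside 0.01 each over all genes. The log2 fold changes ran from -0.72 to 0.97 on MS and from -0.90 to 0.94 after MeJA.

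The lowest unadjusted p-values are given as not passing. On MS, MYB10 averaged 8.07 ± 1.78 FPKM in erf114 and 3.96 ± 2.24 FPKM in Col, with a log2 fold change of 0.97 ± 0.30. MYB65 averaged 3.05 ± 0.26 FPKM in erf114 and 3.90 ± 0.05 FPKM in Col (-0.50 ± 0.16), and MYB50 12.6 ± 2.1 FPKM in erf114 and 7.51 ± 3.09 FPKM in Col (0.68 ± 0.22). The adjusted p was 0.85 for each of the 3. After MeJA, MYB305 averaged 0.58 ± 0.15 FPKM in erf114 and 0.327 ± 0.155 FPKM in Col, with a log2 fold change of 0.94 ± 0.37 (adjusted p = 0.5). MYB33 averaged 5.57 ± 0.55 FPKM in erf114 and 7.36 ± 0.25 FPKM in Col (-0.28 ± 0.12, adjusted p = 0.53). MYB49 averaged 4.36 ± 0.49 FPKM in erf114 and 3.42 ± 0.46 FPKM in Col (0.47 ± 0.22, adjusted p = 0.58).

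**Figure D4:**
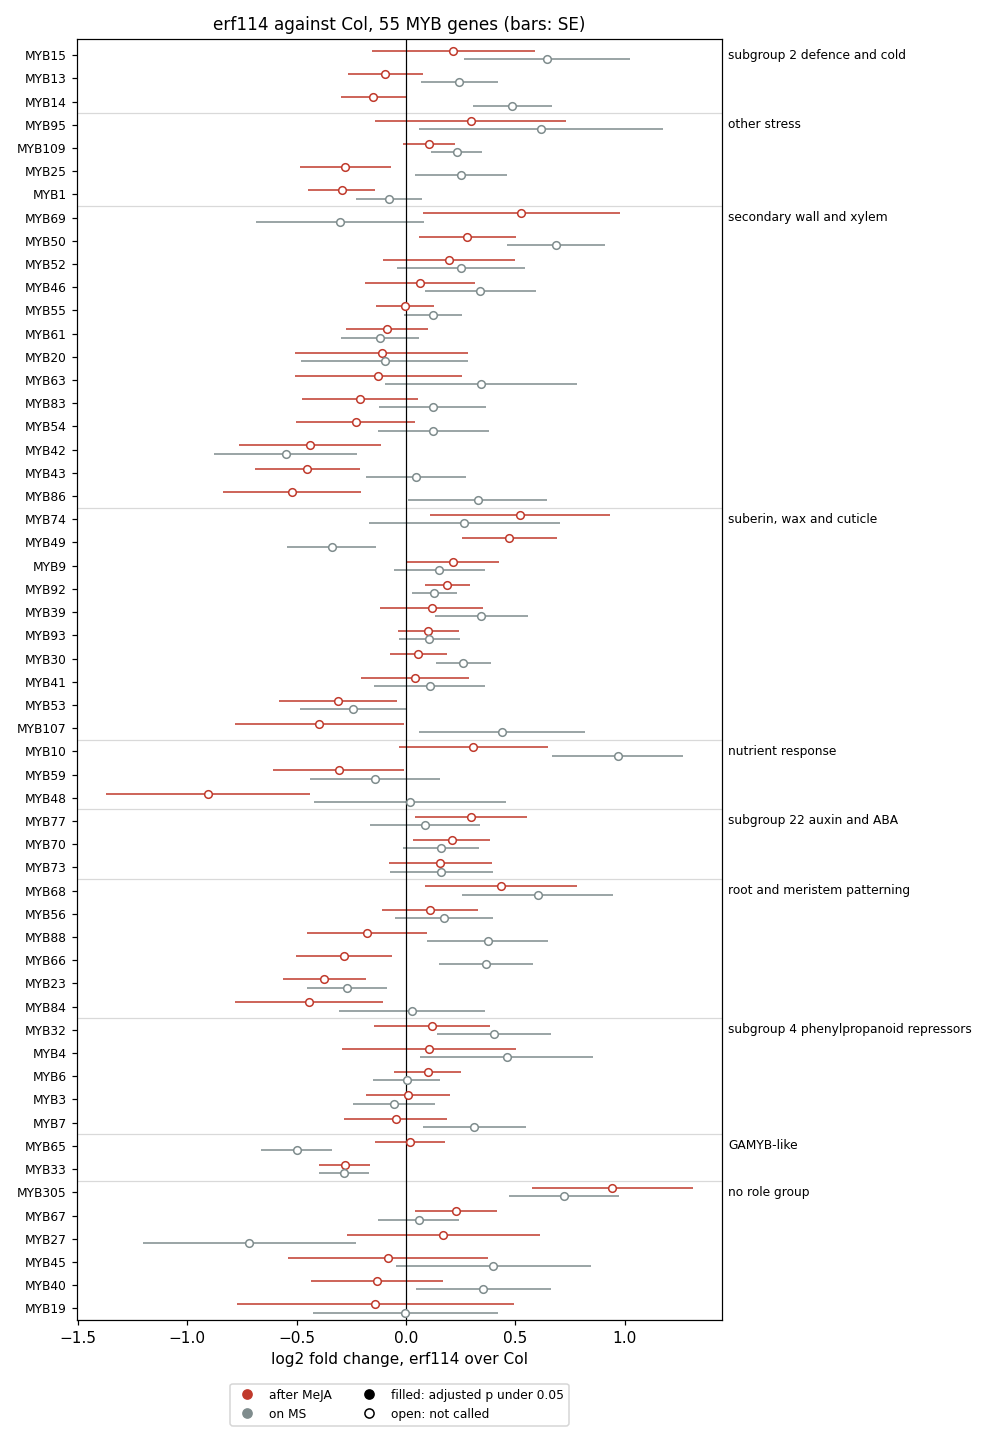
Log2 fold change of erf114 over Col (x axis) for the 55 MYB genes (y axis, by role), after MeJA (red, upper point) and on MS (grey, lower point). Bars are SE, and every point is open because none passed an adjusted p of 0.05; the points lie between -0.90 and 0.97.

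The response to MeJA was compared between genotypes through the interaction, erf114 minus Col. It called 0 of 55 members in edgeR and in DESeq2, beside 0.0273% of all genes in edgeR, and 3 members had an unadjusted p under 0.05. These were MYB49 (0.81 ± 0.30, a smaller fall in erf114), MYB14 (-0.64 ± 0.24, a smaller rise in erf114) and MYB65 (0.52 ± 0.23), each with an adjusted p of 0.64. The share of all genes at that unadjusted p was not counted, so nothing is read from the 3. MYB10, MYB43, MYB54, MYB77 and MYB88, called in a single genotype, are therefore not shown to respond differently.

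Lists of MYB partners, three-repeat MYB genes and genes of pathways in which MYB factors act were counted with the same fit. Over all 44 tested genes of these lists, 6 rose and 6 fell in erf114, and 6 rose and 6 fell in Col. Over all tested genes, 10.2% rose and 8.59% fell in erf114, and 10.4% rose and 11.5% fell in Col, and nothing is read from the lists' counts beyond these shares. Of 9 tested genes listed as partners and competitors of the epidermal MYB complexes, 1 rose and 2 fell in each genotype. Their median log2 fold change was -0.22 in erf114 and -0.25 in Col. The 9 include MYB66, itself an epidermal MYB and also counted among the members above, which passed in neither genotype in the main fit. ETC3 (AT4G01060) and MYBL2, single-repeat MYB proteins that compete with the longer MYBs for their partners, fell in both. ETC3 averaged 0.933 ± 0.693 FPKM in erf114 MeJA roots, against 9.73 ± 2.46 FPKM in erf114 MS roots (-3.51 ± 0.45, adjusted p = 0.00012). In Col, ETC3 averaged 0.14 ± 0.14 FPKM with MeJA, against 7.67 ± 1.07 FPKM on MS (-4.65 ± 0.55, adjusted p = 5.8e-05). MYBL2 changed by -1.40 ± 0.37 in erf114 (adjusted p = 0.019) and -1.85 ± 0.39 in Col (adjusted p = 0.0043), and its erf114 call was lost without erf114 MS replicate 1 or 2 or erf114 MeJA replicate 1 (-1.16 to -1.32, adjusted p 0.065 to 0.085). CPC, the mobile root hair factor, rose in erf114 by 0.87 ± 0.22 (adjusted p = 0.013) and had 0.48 ± 0.22 in Col (adjusted p = 0.15). Its call was lost without erf114 MS replicate 2 or erf114 MeJA replicate 1 (both 0.72, adjusted p = 0.065). GL3, a bHLH partner, had 0.31 ± 0.18 in erf114 (adjusted p = 0.31) and rose in Col by 0.74 ± 0.18 (adjusted p = 0.011), a call lost without Col MeJA replicate 3 (0.66, adjusted p = 0.057). None of the 4 tested three-repeat MYB genes, which act in the cell cycle, was called in any comparison.

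Of 12 tested secondary wall genes, NST1, KNAT7 and LAC17 rose in both genotypes and none was called lower in edgeR. NST1, a NAC master switch of fibre walls, averaged 1.22 ± 0.44 FPKM in erf114 MeJA roots, against 0.177 ± 0.045 FPKM in erf114 MS roots (3.04 ± 0.43, adjusted p = 0.00026). In Col it averaged 1.26 ± 0.14 FPKM with MeJA, against 0.087 ± 0.081 FPKM on MS (3.81 ± 0.49, adjusted p = 0.00011). KNAT7, a wall-related homeobox factor, rose by 0.68 ± 0.15 in erf114 (adjusted p = 0.0056) and 0.98 ± 0.15 in Col (adjusted p = 0.00039), with the erf114 call lost in limma on log2(FPKM + 1) (0.34, adjusted p = 0.19) and with a block within the 2 groups (0.66, adjusted p = 0.12). LAC17, a lignin laccase, rose by 0.32 ± 0.10 in erf114 (adjusted p = 0.035) and 0.47 ± 0.10 in Col (adjusted p = 0.0036). Without Col MeJA replicate 3, any 1 erf114 MS replicate or erf114 MeJA replicate 1 or 2, the erf114 call of LAC17 was lost (0.29 to 0.35, adjusted p 0.056 to 0.12). Limma on log2(FPKM + 1) gave LAC17 0.01 in erf114 (adjusted p = 0.95) and 0.38 in Col (adjusted p = 0.081). The cellulose synthase genes CESA4, IRX1 and IRX3 had log2 fold changes of -0.24, 0.10 and 0.08 in erf114 and -0.21, -0.02 and -0.05 in Col, with no call in edgeR. DESeq2 called CESA4 lower in erf114 (-0.22, adjusted p = 0.048) and in Col (-0.21, adjusted p = 0.047). On log2(FPKM + 1), which carries the median shift given above, limma called CESA4 (-0.54, adjusted p = 0.015), GUT2 (-0.48, adjusted p = 0.0047) and VND7 (-0.63, adjusted p = 0.021) lower in erf114.

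Of 13 tested genes of the suberin list, 1 rose and 2 fell in erf114 and 2 fell in Col. Their median log2 fold changes were -0.14 in erf114 and -0.16 in Col. Among the 13 is AT4G15090, matched through the symbol FAR1. This locus is a light-signalling gene and not the fatty acyl reductase of that name, and it was called in neither genotype. CYP86B1, a fatty acid hydroxylase, fell by 0.36 ± 0.10 in erf114 (adjusted p = 0.031) and by 0.56 ± 0.10 in Col (adjusted p = 0.0019) on the log2 scale. Its erf114 call was lost without erf114 MS replicate 1 or 3 or erf114 MeJA replicate 1 or 3 (-0.30 to -0.34, adjusted p 0.082 to 0.11). FAR4, which makes fatty alcohols, changed by -0.60 ± 0.15 in erf114 (adjusted p = 0.012), and the acyltransferase gene GPAT7 by -0.72 ± 0.18 in Col (adjusted p = 0.013), lost without Col MeJA replicate 2 (-0.66, adjusted p = 0.059). The suberin exporter gene ABCG6 changed by -0.61 ± 0.21 in Col (adjusted p = 0.057) and was called there with DESeq2 (-0.61, adjusted p = 0.036), the replicate block (-0.59, adjusted p = 0.02), limma on log2(FPKM + 1) (-0.63, adjusted p = 0.0074) and a mean FPKM of at least 5 (-0.58, adjusted p = 0.045). Limma on log2(FPKM + 1), which carries the median shift given above, also called KCS20 and CYP86A1 lower in Col. It called GPAT7, ABCG6 and KCS20 lower in erf114, where edgeR gave -0.21, -0.15 and -0.21 (adjusted p = 0.54, 0.74 and 0.45). KCS2, which elongates fatty acids, rose by 0.40 ± 0.11 in erf114 (adjusted p = 0.018), a call lost without erf114 MS replicate 1 (0.36, adjusted p = 0.079) or erf114 MeJA replicate 1 (0.33, adjusted p = 0.089). Limma on log2(FPKM + 1) gave KCS2 0.09 in erf114 (adjusted p = 0.6), and the block within the 2 groups gave 0.40 (adjusted p = 0.16).

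Among 6 tested iron-response genes of the MYB10 and MYB72 pathway, 1 rose and 2 fell in erf114, and 2 rose and 2 fell in Col. NAS4, a nicotianamine synthase gene activated by MYB10 and MYB72, averaged 2.49 ± 0.29 FPKM in erf114 MeJA roots, against 9.78 ± 2.35 FPKM in erf114 MS roots (-1.66 ± 0.23, adjusted p = 0.00019). In Col it averaged 1.75 ± 0.48 FPKM with MeJA, against 6.85 ± 0.66 FPKM on MS (-1.92 ± 0.23, adjusted p = 7.8e-05). CYP82C4, which makes the coumarin sideretin, changed by -1.97 ± 0.28 in erf114 (adjusted p = 0.00029) and -2.40 ± 0.31 in Col (adjusted p = 0.00013). ABCG37, the coumarin exporter listed as PDR9, rose by 1.13 ± 0.18 in erf114 (adjusted p = 0.00074) and 1.42 ± 0.18 in Col (adjusted p = 0.00013). BGLU42 had 0.56 ± 0.20 in erf114 (adjusted p = 0.073) and rose by 0.83 ± 0.20 in Col (adjusted p = 0.0097). Its Col call was lost in limma on log2(FPKM + 1) (0.71, adjusted p = 0.061). In erf114 BGLU42 was called with DESeq2 (0.58, adjusted p = 0.032), and without Col MS replicate 1 (0.565, adjusted p = 0.014) or erf114 MeJA replicate 3 (0.72, adjusted p = 0.027). NAS2 was called between genotypes in edgeR. It averaged 5.44 ± 1.02 FPKM in erf114 and 2.18 ± 0.33 FPKM in Col on MS (1.21 ± 0.17, adjusted p = 0.04), and 4.82 ± 0.47 FPKM in erf114 and 2.17 ± 0.26 FPKM in Col after MeJA (1.28 ± 0.17, adjusted p = 0.0068). The call on MS was lost with the replicate block, for which same-numbered libraries paired (1.20, adjusted p = 0.083), and without any 1 library other than erf114 MS replicate 1 (1.11 to 1.25, adjusted p 0.077 to 0.40). After MeJA it was lost without Col MeJA replicate 3 (1.24, adjusted p = 0.071). CYP82C4 averaged 1.93 ± 0.22 FPKM in erf114 and 0.773 ± 0.175 FPKM in Col after MeJA, and was called between genotypes there with DESeq2 (1.46, adjusted p = 0.0033), the replicate block (1.47, adjusted p = 0.044) or without erf114 MS replicate 1 (1.44, adjusted p = 0.031). In edgeR on all libraries it was not called (1.44 ± 0.32, adjusted p = 0.11).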

How the data were processed

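The members, role groups and lists were chosen with earlier results of these data known. Sources of each step are the labels, the file headers and the tables. Per the file headers, the authors deposited counts of reads, TPM and FPKM in 1 table for each library. Between 1.542 and 1.718% of the deposited count values in a library were fractional (none of a member), so all were handled as estimated counts and then rounded. The deposited TPM values, scaled to a fixed total, were not used in tests. The deposited FPKM values, scaled by gene length and library total, gave the threshold (at least 1 in at least 3 of 12 libraries) and the levels. The aligner, counting tool, genome build and strand setting were not given in the sources used here. All 23719 gene identifiers matched TAIR10.1, which gave coordinates, overlaps and promoters.

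R 4.3.3 and edgeR 4.0.16 were run on all 12 libraries with TMM factors, a mean for each of the 4 groups, 1 estimate of spread (8 residual degrees of freedom, biological coefficient of variation 17.9%) and quasi-likelihood tests with Benjamini-Hochberg adjustment at 0.05. The SE is the log2 fold change over the square root of F. The same steps were tested on simulated counts. DESeq2 1.42.0, limma 3.58.1 on log2(FPKM + 1) and log2(FPKM + 0.1), median-of-ratios factors, a mean FPKM of at least 5, no filter on low values, a replicate block and leaving out each library were alternatives. A block within the 2 groups compared, and leaving out Col MS replicate 1 with erf114 MS replicate 3, were added after seeing the data. No replicates matched within sampling noise, with a chi-square per gene of 7.32 to 63.72.

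Values in every library are given for called members with an absolute log2 fold change of at least 1 and a mean of at least 2 FPKM in the higher group; MYB15 was named so after its values were seen. Where none was called, the 3 members of lowest p are given. Correlations of deviations from group means paired replicate numbers for MeJA in Col (0.43, 0.43 and 0.26) and for the genotypes on MS (0.2, 0.21 and 0.3), by a minimum of 0.1. They did not for MeJA in erf114 (-0.26, 0.14 and -0.31) or the genotypes after MeJA (0.11, 0.39 and -0.25). What a shared number stands for is not in the labels.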

Additional observations from a re-analysis of the deposited data

How the results depend on the processing

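Small differences could not be resolved at this spread, and members near the adjusted p threshold changed sides with single libraries. The genotype comparisons and the interaction called 0 members under every alternative run, and none of the 29 MeJA calls of MYB genes turned direction where tested. Main member counts were 4 higher and 11 lower in erf114 and 5 higher and 9 lower in Col. A mean FPKM of at least 5, which tested 29 members, gave 2 higher and 6 lower in erf114 and 3 higher and 5 lower in Col; fewer genes were tested. Limma with either pseudocount gave 1 higher in erf114. DESeq2 lost no call. In Col it added MYB86 and MYB109 as higher and MYB10 and MYB69 as lower, and in erf114 MYB77 as lower. Over all genes DESeq2 called 2197 higher and 2410 lower in Col, against 1912 and 2114 in the main fit. The replicate block gave 8 higher in Col. The block within the 2 groups gave 1 higher and 7 lower in erf114 and 8 higher in Col. Over all genes that block gave 1230 higher and 798 lower in erf114 and 2591 higher in Col. Leaving out 1 library gave 1 to 4 higher and 6 to 13 lower in erf114, and 4 to 7 higher and 5 to 10 lower in Col. Higher calls in erf114 fell to 1 without erf114 MS replicate 1 or 2 and to 2 without erf114 MeJA replicate 1. Lower calls in erf114 fell to 6 without erf114 MeJA replicate 1 and to 7 without erf114 MeJA replicate 3. Lower calls in Col fell to 5 without Col MS replicate 3, Col MeJA replicate 1 or Col MeJA replicate 3. Over all genes, higher calls in erf114 were 1525, 1428 and 1531 in the order given, against 1863 in the main fit. Lower calls over all genes were 1188 and 1373 in erf114, against 1575, and 1830, 1661 and 1362 in Col, against 2114. The cause was not tested.

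In the 5 lists together, the main counts were 6 higher and 6 lower in each genotype. Limma with either pseudocount gave 3 higher and 12 lower in erf114 and 3 higher and 11 lower in Col. Over all tested genes, limma on log2(FPKM + 1), without rescaling, called 1224 higher and 4195 lower in erf114, against 1863 and 1575 in the main fit. In Col it called 1509 higher and 3111 lower, against 1912 and 2114. A mean FPKM of at least 5 gave 3 lower in each genotype, and the block within the 2 groups 2 higher and 3 lower in erf114. Leaving out 1 library gave 3 to 7 higher and 4 to 8 lower in erf114, and 5 to 7 higher and 5 to 8 lower in Col. For erf114 against Col on MS the 1 higher gene became 0 with a mean FPKM of at least 5, limma, either block, or without Col MS replicate 1 and erf114 MS replicate 3, and 0 to 1 without 1 library. After MeJA the count of 1 became 2 with DESeq2 or either block, through CYP82C4, 0 with a mean FPKM of at least 5, and 0 to 2 without 1 library. The cause was not tested. The replicate numbers of MeJA and MS libraries in erf114 do not pair by the check used, and the block there added MYB48 (-1.21, adjusted p = 0.014) and MYB77 (-0.78, adjusted p = 0.0027).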
